A study of Mus musculus with 36 samples.

Results

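miR-144, miR-451a and miR-486 are the microRNAs (miRNAs) best known from developing red blood cells, and their levels were followed here in whole kidneys of newborn mice with and without polycystic kidney disease. The members were taken by name from the table of mature miRNAs: mmu-miR-144-3p, mmu-miR-144-5p, mmu-miR-451a, mmu-miR-486a-5p and mmu-miR-486b-5p (the prefix, for mouse, is left out from here on), which are 5 of the 1915 mature miRNAs listed. The names miR-486a-5p and miR-486b-5p were given nearly the same reads, with counts that differed by at most 1.42% in any library, so the 5 names stand for 4 distinct sequences and miR-486a-5p is used for the pair. The kidneys came from 2 floxed lines on the C57BL/6 background. In the first, exons of Pkd1 are flanked by loxP sites (Pkd1f/f), and in the second, exons of Pkd2 (Pkd2f/f); both genes encode polycystins, which are lost in autosomal dominant polycystic kidney disease. Animals that also carry HoxB7-Cre lose the gene in cells descended from the ureteric bud, such as those of the collecting duct, and are called KO. Floxed animals without Cre are called WT. Every animal, WT included, is therefore floxed, and in KO kidneys the gene stays intact outside that lineage, which includes blood cells. Kidneys were taken at postnatal day 1 (P1), 3 (P3) or 7 (P7). Line, age and genotype make 12 groups with 3 libraries apiece, which gives 36 libraries. The labels do not say whether a library holds 1 animal or several, so p-values measure the spread between libraries.

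A miRNA is cut from a hairpin precursor and guides Argonaute proteins to messenger RNAs through its seed, the bases near its 5′ end. miR-144 and miR-451a are made from 1 primary transcript that the factor GATA1 switches on in red cell precursors. miR-451a is known for skipping Dicer, since its short hairpin is cut by Argonaute 2, and it is among the most abundant miRNAs of mature red cells. miR-486 lies within Ank1, which encodes the red cell membrane protein ankyrin-1, and it is also made in skeletal and heart muscle. In a bulk kidney these miRNAs are commonly read as a trace of blood, but the number of blood cells and the amount of each miRNA per cell cannot be told apart in such samples.

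Mir144 and Mir451a are neighbours on mouse chromosome 11 (GENCODE M21, build GRCm38, the same assembly as mm10). Mir144 spans chr11:78073005-78073070 on the plus strand. Mir451a spans chr11:78073170-78073241 on the plus strand and begins after a gap of 99 bases. Neither overlaps an exon or intron of another gene, other than Mir451b on the minus strand of the Mir451a locus. Mir486 spans chr8:23142555-23142682 on the plus strand, in an intron of Ank1. Another miRNA gene, Mir3107, lies inside that span on the minus strand (chr8:23142573-23142662). The mature sequences of the miR-144/451a locus are shown because 2 of them are the arms of 1 hairpin and the third comes from its neighbour (RefSeq, GRCm38.p6, 3 of the 5 member names matched). They are written 5′ to 3′, with the seed, bases 2 to 8, in capitals.
miR-144-3p: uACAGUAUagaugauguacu
miR-144-5p: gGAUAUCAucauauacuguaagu
miR-451a: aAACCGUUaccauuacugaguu

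The 3 seeds differ from one another, and none of them occurs at bases 2 to 8 of another mature miRNA among the 1679 names searched. All 3 sequences are poor in G and C, with 30% in miR-144-3p, 30.4% in miR-144-5p and 36.4% in miR-451a, against a median of 47.8% over the 649 tested miRNAs with a sequence. Of those, 1.39% have a lower share than miR-144-3p and 7.24% a lower share than miR-451a. The hairpins are shown next, with the mature parts in capitals, to make plain where each product lies.
Mir144: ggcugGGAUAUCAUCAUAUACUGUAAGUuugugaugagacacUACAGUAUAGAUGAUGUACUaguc
Mir451a: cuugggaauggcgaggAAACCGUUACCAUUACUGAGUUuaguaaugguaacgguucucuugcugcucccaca

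In Mir144 the 5p arm covers bases 6 to 28 and the 3p arm bases 43 to 62, and the longest stretch that pairs perfectly with the other side has 9 bases. In Mir451a the single mature product covers bases 17 to 38. A perfect inverted repeat of 16 bases joins bases 18 to 33 with bases 40 to 55 and leaves a loop of 6 bases. The miR-451a mature sequence thus runs through the whole 5′ side of this repeat and into the loop.

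Each library held from 12569939 to 32663566 miRNA reads. Counts were scaled to a common library size as CPM, with factors by trimmed mean of M values (TMM), a method that sets the bulk of miRNAs equal between libraries. The combined share of miR-10a-5p and miR-10b-5p in a library lay between 31.4% and 81.0%, and the TMM factors within a line ran from 0.393 to 2.13. The 6 miRNAs taken as markers of kidney tubule (miR-192-5p, miR-194-5p, miR-204-5p, miR-30a-5p, miR-200b-3p and miR-200c-3p) summed to between 34152 and 103564 CPM in the libraries. No other tissue was set beside them, so the tissue label was not tested. The 4 member sequences together made up from 0.127% to 0.763% of the reads, with a median of 0.275%. At 3 reads, the count taken as the limit of detection, a library reached from 0.0562 to 0.391 CPM, and every member lay above it in all 36 libraries.

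miR-486a-5p was the most abundant member, with a median of 1949 CPM on a scale common to the 36 libraries, from 879 to 4052 CPM. miR-451a had a median of 684 CPM, from 234 to 2437 CPM. The miR-144 arms were far lower, with medians of 39.1 CPM for miR-144-3p (3.15 to 151 CPM) and 26.8 CPM for miR-144-5p (12.1 to 119 CPM). A miRNA read covers its whole molecule, so no length enters these values, but miRNAs differ in how well adaptors join to them and the order between miRNAs carries that error. The lowest member count was 26 reads, of miR-144-3p in a Pkd1 P1 WT library, and the highest 115994 reads, of miR-486a-5p.

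**Figure D1:**
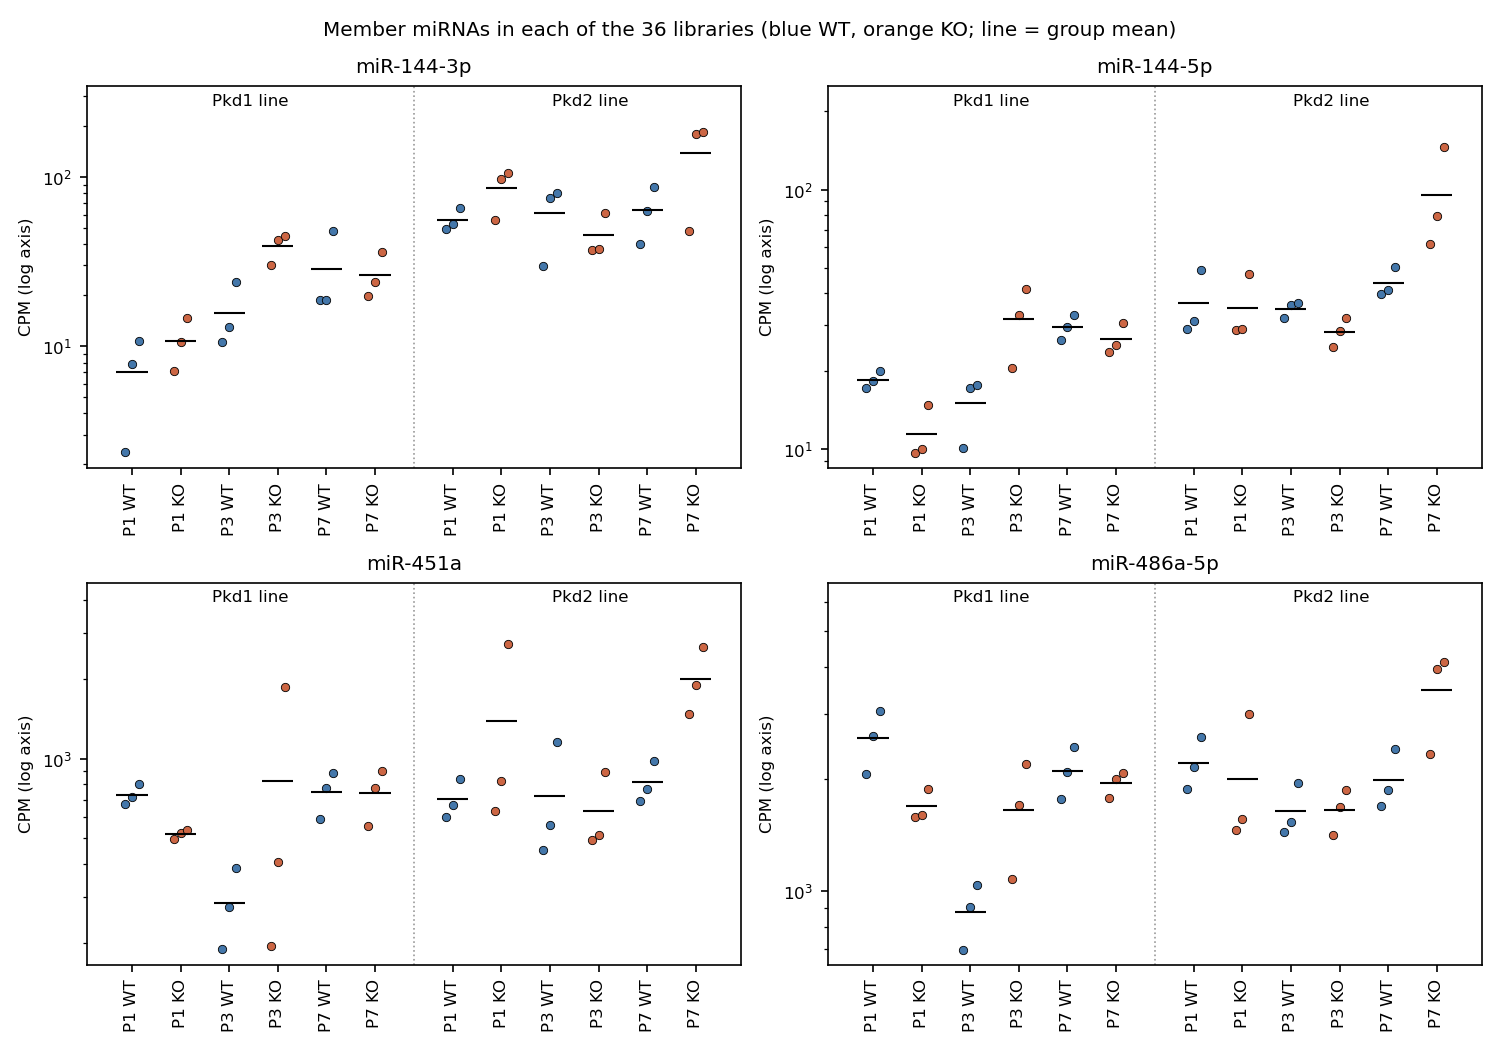
Normalised CPM (log axis) of the 4 member sequences in each library, in 12 groups along the horizontal axis; points are libraries sorted by value within a group, blue for WT and orange for KO, and the line is the group mean. CPM use each line's own factors, so levels are to be compared within a line only. In the Pkd2 line the P7 KO group has the highest mean of all 4 member sequences. In the Pkd1 line the P3 WT group has the lowest mean of miR-451a and miR-486a-5p.

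On the common scale the Pkd2 P7 KO group stood first for miR-144-3p (112 ± 63.3 CPM, SD, n = 3), miR-144-5p (77.5 ± 36.8 CPM) and miR-451a (1628 ± 492 CPM). For miR-486a-5p the order was led by Pkd1 P1 WT (3384 ± 728 CPM), with Pkd2 P7 KO next (2808 ± 807 CPM). The lowest groups were Pkd1 P1 WT for miR-144-3p (9.06 ± 5.34 CPM), Pkd1 P1 KO for miR-144-5p (14.5 ± 3.85 CPM), and Pkd1 P3 WT for miR-451a (358 ± 129 CPM) and for miR-486a-5p (1105 ± 206.1 CPM). The highest group mean was 12.4 times the lowest for miR-144-3p and 3.06 times for miR-486a-5p. All 11 neighbouring pairs in the order of each member overlapped in range. Groups sorted by mean readily overlap their neighbours, so this does not tell whether the groups differ.

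The comparison of KO with WT kidneys asks how the levels change when collecting duct cells lose Pkd1 or Pkd2 and cysts form. In the Pkd1 line the direction differed with age: 3 of the 4 member sequences read lower in KO at P1, all 4 read higher at P3, and at P7 the differences were small. None of them passed an adjusted p of 0.05 at any age (edgeR quasi-likelihood test, Benjamini-Hochberg adjustment over 706 miRNAs). At P1 and P3 the share of all 706 miRNAs called was 0%, and at P7 it was 0.425%.

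At P1, miR-144-5p was at 17.2, 20.1 and 18.2 CPM in the 3 Pkd1 WT libraries and at 9.99, 14.7 and 9.67 CPM in the 3 KO libraries. Every KO library lay below every WT library, with a log2 fold change of -0.69 (SE 0.27, unadjusted p = 0.0218, adjusted p = 0.44 by edgeR). miR-451a was at 672, 801 and 715 CPM in WT and 497, 538 and 526 CPM in KO, again without overlap, and its log2 fold change was -0.49 (SE 0.54, adjusted p = 0.703 by edgeR). miR-486a-5p was at 3045, 2615 and 2065 CPM in WT and 1586, 1878 and 1600 CPM in KO (log2 fold change -0.61, SE 0.23, unadjusted p = 0.0196, adjusted p = 0.44 by edgeR). These 3 members were among the 19.8% of miRNAs whose groups did not overlap. The other arm, miR-144-3p, did not share the direction: it was at 7.89, 2.36 and 10.7 CPM in WT and 10.6, 14.6 and 7.13 CPM in KO, and the groups overlapped.

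One of these WT libraries, replicate 1, stood apart in muscle miRNAs. miR-1a-3p, miR-133a-3p and miR-206-3p, which are made in skeletal or heart muscle, summed to 1146 CPM in it against 14.03 and 39.8 CPM in the other WT libraries and 16.3 to 45.4 CPM in KO. It also had the highest miR-486a-5p of the 6 libraries. Without it the log2 fold change of miR-486a-5p at P1 was -0.47, and that of miR-144-5p was -0.74.

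At P3 the Pkd1 KO libraries stood on the other side. miR-144-5p was at 10.1, 17.7 and 17.2 CPM in WT and 20.5, 32.9 and 41.4 CPM in KO, without overlap, a log2 fold change of 1.08 (SE 0.27, unadjusted p = 0.00117, adjusted p = 0.202 by edgeR). miR-144-3p was at 12.9, 10.6 and 23.8 CPM in WT and 42.6, 30.2 and 44.5 CPM in KO, also without overlap (log2 fold change 1.31, SE 0.50, adjusted p = 0.464 by edgeR). miR-486a-5p was at 693, 908 and 1038 CPM in WT and 1074, 1700 and 2193 CPM in KO (log2 fold change 0.91, SE 0.23, unadjusted p = 0.00142, adjusted p = 0.202 by edgeR). By unadjusted p, miR-144-5p ranked 3 and miR-486a-5p ranked 4 of the 706 miRNAs tested. Those include miR-486b-5p, with nearly the same reads as miR-486a-5p, which can lower the adjusted p. These 3 members were among the 11.9% of miRNAs without overlap between groups, and the median log2 fold change of the 4 member sequences was 1.19 against 0.02 over all miRNAs.

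miR-451a at P3 was uneven. It was at 387, 275 and 190 CPM in Pkd1 WT and at 196, 1875 and 406 CPM in KO, so that 1 KO library was far above all others and another was near the lowest WT library. Its log2 fold change was 1.54 (SE 0.56, adjusted p = 0.464 by edgeR), and without KO replicate 2, the library at 1875 CPM, it was 0.08. Without KO replicate 1 instead, the adjusted p by edgeR was 0.0308 for miR-144-5p, 0.0473 for miR-451a and 0.0225 for miR-486a-5p, each under the threshold. The share of all miRNAs called in that refit is not given here, so this does not set the members apart from other miRNAs. The lowest and highest adjusted p over all alternatives were 0.0308 and 0.998 for miR-144-5p, 0.0473 and 0.998 for miR-451a, and 0.0225 and 0.998 for miR-486a-5p.

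At P7 the Pkd1 groups overlapped for every member, while 16.3% of all miRNAs did not overlap. miR-144-5p was at 29.7, 26.3 and 33.0 CPM in WT and 23.7, 25.3 and 30.7 CPM in KO, and the log2 fold changes of the 4 member sequences lay between -0.16 and -0.01.

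**Figure D2:**
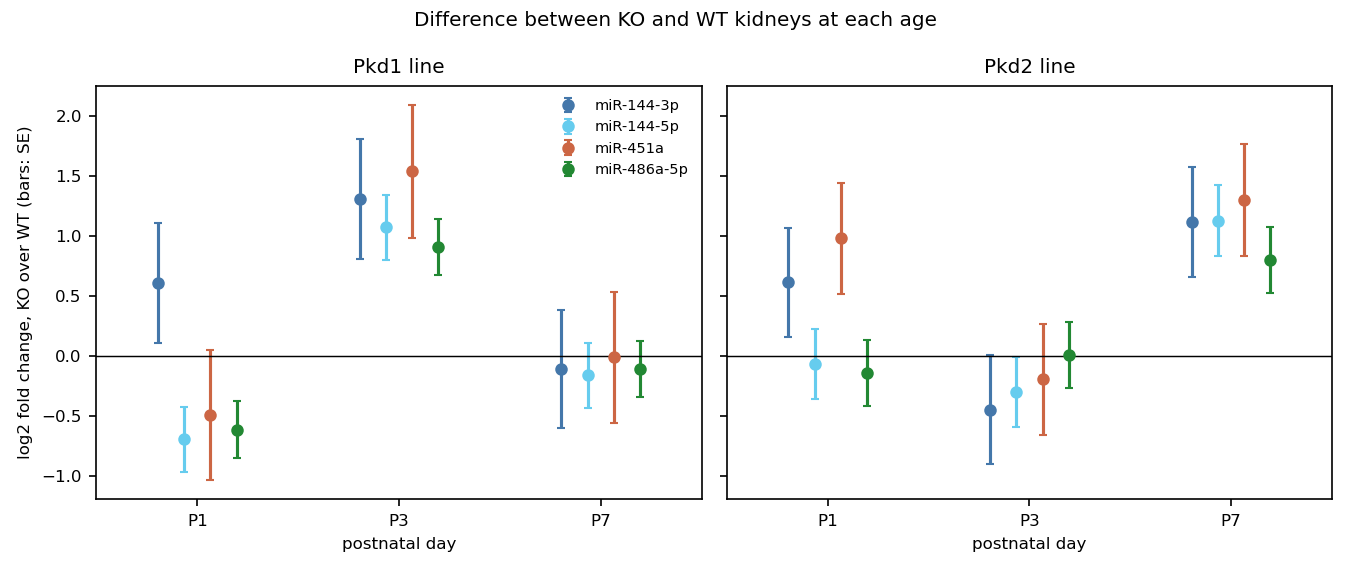
Log2 fold change of KO over WT at each postnatal day (horizontal axis) for the 4 member sequences in the Pkd1 line (left) and the Pkd2 line (right); points are edgeR estimates and bars are their standard errors. Each member has its highest point at P3 in the Pkd1 line (0.91 to 1.54) and at P7 in the Pkd2 line (0.80 to 1.30).

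In the Pkd2 line the members read higher in KO at P7, and miR-144-5p passed the test. miR-144-5p was at 39.4, 41.0 and 50.5 CPM in WT and 61.7, 78.9 and 145.9 CPM in KO. Every KO library was above every WT library, a difference of 1.13 on the log2 scale (SE 0.29, adjusted p = 0.0204 by edgeR over 746 miRNAs). miR-451a was at 984, 690 and 771 CPM in WT and 1478, 1898 and 2644 CPM in KO, also without overlap (log2 fold change 1.30, SE 0.47, adjusted p = 0.0776 by edgeR).

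For the remaining members at P7 the Pkd2 groups overlapped only through KO replicate 2, the library in which miR-10a-5p and miR-10b-5p took 74.1% of the reads. miR-486a-5p was at 1688, 1866 and 2408 CPM in WT and 4120, 2329 and 3944 CPM in KO (log2 fold change 0.80, SE 0.28, adjusted p = 0.0666 by edgeR). miR-144-3p was at 40.2, 63.3 and 87.3 CPM in WT and 181, 48.2 and 185.1 CPM in KO (log2 fold change 1.12, SE 0.46, adjusted p = 0.111 by edgeR). At this age 12.6% of all miRNAs tested were called and 25.2% did not overlap between groups, which is the background for the 1 of 4 members called and the 2 of 4 without overlap. The median log2 fold change of the 4 member sequences was 1.12, against 0.02 over all miRNAs.

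The call rested on few libraries. Without any 1 of the 3 WT libraries, or without KO replicate 3, none of the members passed, and the adjusted p of miR-144-5p was 0.158 without that KO library. Without KO replicate 2, 3 of the 4 passed, but the share of all miRNAs called in that refit is not given here. Over all alternatives the log2 fold change of miR-144-5p ran from 0.67 to 1.36 and its adjusted p from 0.0045 to 0.172.

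At P1 and P3 none of the members differed in the Pkd2 line by edgeR, where 0% of all miRNAs were called at either age and the unadjusted p was under 0.05 for none of the 4. At P1 miR-451a was at 603, 669 and 842 CPM in WT and 634, 2714 and 826 CPM in KO, with 1 KO library far above the rest (log2 fold change 0.98, SE 0.46, unadjusted p = 0.0504 by edgeR). Without that library, KO replicate 2, the log2 fold change was 0.05. At P3 miR-144-5p was at 36.1, 31.95 and 36.4 CPM in WT and 24.7, 31.93 and 28.5 CPM in KO, with a log2 fold change of -0.29 (SE 0.29, unadjusted p = 0.328 by edgeR). The highest KO and the lowest WT library were practically level, and on the scale common to all 36 libraries they changed places (26.5 CPM in KO, 24.9 CPM in WT), so the groups overlap there. On the scale of the line 4.69% of all miRNAs did not overlap.

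Markers of other cells were read beside these differences. Between Pkd1 KO and WT at P3 none of the 24 marker miRNAs passed the test, where 0% of all 706 miRNAs passed. That count therefore does not tell the markers from other miRNAs. The 6 leukocyte miRNAs (miR-142a-3p, miR-142a-5p, miR-223-3p, miR-150-5p, miR-155-5p and miR-146a-5p) summed to 312 to 342 CPM in KO and 232 to 300.5 CPM in WT. The 3 muscle miRNAs had a median log2 fold change of 1.13 there (1.02 to 2.51) and summed to 27.0 to 70.1 CPM in KO and 15.04 to 40.5 CPM in WT. miR-122-5p, of liver, was at 5.90 to 19.5 CPM in KO and 0.805 to 10.7 CPM in WT (log2 fold change 1.39). Between Pkd2 KO and WT at P7 none of the 6 leukocyte miRNAs passed (median log2 fold change 0.31), with sums of 866 to 1084 CPM in KO and 874 to 897 CPM in WT. The 2 arms of miR-126a, of endothelium, had a median of -0.49 and neither passed. Of the 6 tubule miRNAs 1 was higher and 3 were lower in KO, where 12.6% of all miRNAs were called. The 3 muscle miRNAs did not pass at P7 (median log2 fold change 1.87) and summed to 32.5 to 130.2 CPM in KO and 20.8 to 23.3 CPM in WT. miR-122-5p was at 3.09 to 17.5 CPM in KO and 1.04 to 3.64 CPM in WT and did not pass. The part of these cell types in the member differences was not tested.

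Other miRNAs abundant in red cells were read in the same way. They are miR-16-5p, miR-92a-3p, miR-25-3p, miR-185-5p, miR-363-3p and miR-107-3p, all of which many other cells also make. Between Pkd2 KO and WT at P7 none of the 6 was called higher and 1 was called lower, with a median log2 fold change of -0.33. Of all miRNAs tested there, 12.6% were called. Their summed level was 15505 to 21632 CPM in KO and 19876 to 21750 CPM in WT. Between Pkd1 KO and WT at P3 their log2 fold changes lay between -0.18 and -0.01.

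The change of the KO effect between ages was tested as a difference of differences. The contrasts with P3 were added after seeing the data, so their ranks and p-values are not independent of the pattern seen. In the Pkd1 line the effect at P3 minus that at P1 was 1.76 for miR-144-5p (SE 0.38, unadjusted p = 0.000317) and 1.52 for miR-486a-5p (SE 0.33, unadjusted p = 0.000337), both log2. These ranked 1 and 2 of the 706 miRNAs by unadjusted p, with an adjusted p of 0.0799 each by edgeR, and none of the 706 passed. The 706 include miR-486b-5p, with nearly the same reads as miR-486a-5p. That sequence is thus counted under both names, which can lower the adjusted p. miR-451a had a difference of 2.03 (SE 0.78, adjusted p = 0.228 by edgeR), which was 0.57 without Pkd1 P3 KO replicate 2 and 2.49 (adjusted p = 0.0448 by edgeR) without KO replicate 1 of that age. The adjusted p of miR-451a ran from 0.0448 to 0.692 over all alternatives. For miR-144-3p the difference was 0.70 (SE 0.70, adjusted p = 0.752 by edgeR). Under DESeq2 the adjusted p was 0.00274 for both miR-144-5p and miR-486a-5p, and both also passed by edgeR without Pkd1 P1 WT replicate 3 (adjusted p = 0.0348 for each) and without Pkd1 P3 KO replicate 1 (adjusted p = 0.00935 and 0.00606). Over all alternatives it ran from 0.00274 to 0.676 for miR-144-5p and from 0.00274 to 0.779 for miR-486a-5p, and no alternative changed the direction of either.

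From P1 to P7 the KO effect changed by -0.72 to 0.53 in the Pkd1 line and by 0.32 to 1.19 in the Pkd2 line, and none of the 4 passed, where 0.142% and 0.536% of all miRNAs did. Between P3 and P7 the KO effect moved down in the Pkd1 line, by -1.55 to -1.02 log2 over the 4 members, and up in the Pkd2 line, by 0.79 to 1.56. None of the 4 passed in either line, where 0.142% and 0.134% of all miRNAs passed. In the fit of all 36 libraries, the KO effect in the Pkd2 line minus that in the Pkd1 line was negative at P3, from -1.72 to -0.87, and positive at P7, from 0.91 to 1.32. The lowest adjusted p by edgeR was 0.502 at P3 and 0.328 at P7, both of miR-144-5p, where 0% and 0.387% of all miRNAs passed, so a difference between the lines was not shown.

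The WT kidneys show how the members change over the first postnatal week without Cre. In the Pkd1 line miR-486a-5p fell from P1 to P3 and rose again to P7. Its WT libraries held 3045, 2615 and 2065 CPM at P1, then 693, 908 and 1038 CPM at P3, and 2087, 1769 and 2446 CPM at P7. The P3 libraries lay below all others, by a log2 fold change of -1.55 against P1 (SE 0.24, adjusted p = 0.000925 by edgeR), and P7 lay above P3 by 1.26 (SE 0.24, adjusted p = 0.00306 by edgeR). miR-144-5p rose from P3 to P7 by 0.98 (SE 0.27, adjusted p = 0.028 by edgeR), from 15.004 ± 4.28 to 29.6 ± 3.34 CPM (SD, n = 3). miR-451a followed the shape of miR-486a-5p without passing: 730 ± 65.6 CPM at P1, 284 ± 98.9 CPM at P3 and 748 ± 148 CPM at P7, with no overlap at either step (adjusted p = 0.0984 and 0.103 by edgeR). The fall to P3 was not shared by miR-144-3p, which read higher there. It was at 6.99 ± 4.25 CPM at P1 and 15.8 ± 7.07 CPM at P3, with overlap and without passing. Over the whole week, from P1 to P7, 1 of the 4 members was called in Pkd1 WT, where 21.5% of all miRNAs were called and 33.1% did not overlap. This was miR-144-3p, at 7.89, 2.36 and 10.7 CPM at P1 and 18.8, 18.7 and 47.8 CPM at P7, without overlap (log2 fold change 2.02, SE 0.51, adjusted p = 0.0148 by edgeR). Its call was lost without P7 WT replicate 3 (1.39 log2, adjusted p = 0.0813 by edgeR), with only the compared groups (adjusted p = 0.0947) and with library totals (adjusted p = 0.179), and over all alternatives the adjusted p ran from 0.00111 to 0.179. miR-144-5p was higher by 0.68 without overlap (SE 0.27, adjusted p = 0.0787 by edgeR). From P1 to P3 18.8% of all miRNAs were called and 29.6% did not overlap, and from P3 to P7 14.4% were called and 32.7% did not overlap. The 3 muscle miRNAs were all called lower at P3 and at P7 than at P1 (median log2 fold changes -4.17 and -3.37), a comparison that holds P1 WT replicate 1 with its 1146 CPM of them. Without that library miR-486a-5p moved from P1 to P3 by -1.41 log2 (adjusted p = 0.00339 by edgeR). The part of muscle in the change of the members was not tested.

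Scaling mattered for both steps. When libraries were scaled by their totals, the median of all miRNAs moved by 0.56 log2 from P1 to P3 and by -1.17 from P3 to P7 in Pkd1 WT, and none of the members was called. Relative to that median, miR-486a-5p still moved by -1.53 and by 1.14, and miR-144-5p by -0.33 and by 0.90. The miR-144-5p call from P3 to P7 was lost without WT replicate 1 or 3 of P3 and without WT replicate 1 or 3 of P7, with adjusted p of 0.0956, 0.051, 0.0643 and 0.0923 by edgeR and a range of 0.00855 to 0.691 over all alternatives. In the Pkd2 line no member was called between any pair of ages, and the log2 fold changes lay between -0.43 and 0.33, while 0.268% of all miRNAs were called from P1 to P3, 4.16% from P3 to P7 and 28.3% from P1 to P7. Only miR-144-5p did not overlap, between P3 and P7 (log2 fold change 0.33, adjusted p = 0.541 by edgeR), where 28.6% of all miRNAs did not. From P1 to P7 49.9% of all miRNAs did not overlap and each member did.

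In KO kidneys miR-144-5p was higher at P7 than at P1 in both lines. In the Pkd1 line the log2 fold change was 1.21 (SE 0.27, adjusted p = 0.00885 by edgeR), from 11.5 ± 2.84 to 26.6 ± 3.65 CPM (SD, n = 3), with 17.1% of all miRNAs called. Its log2 fold change in Pkd2 was 1.45 (SE 0.30, adjusted p = 0.00283 by edgeR), from 35.0 ± 10.6 to 95.5 ± 44.5 CPM, with 24.4% called. The ages did not overlap in either line for miR-144-5p, which held for 49.4% of all miRNAs in Pkd1 and 31.8% in Pkd2. Also in Pkd2, miR-486a-5p passed at 0.79 log2 (SE 0.28, adjusted p = 0.0476 by edgeR), although its groups overlapped. That call was lost without KO replicate 1 or 3 of P1 and without KO replicate 1 or 3 of P7, and its adjusted p ran from 0.00662 to 0.973 over all alternatives. None of these changes was called with library totals, where the median of all miRNAs moved by -1.07 log2 in the Pkd1 line and -1.01 in the Pkd2 line. Relative to that median miR-144-5p was higher at P7 by 1.14 and 1.38 log2.

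The lines differed most in miR-144-3p. On the common scale the Pkd1 P1 WT libraries held 10.5, 3.15 and 13.5 CPM and the Pkd2 P1 WT libraries 43.0, 39.4 and 52.7 CPM, a difference of 2.30 log2 (SE 0.53, adjusted p = 0.00372 by edgeR over 775 miRNAs). miR-486a-5p went the other way, at 4052, 3492 and 2609 CPM in Pkd1 and 1748, 1497 and 2085 CPM in Pkd2 (log2 fold change -0.93, SE 0.28, adjusted p = 0.0251 by edgeR). Neither overlapped between the lines, nor did miR-451a (log2 fold change -0.76, adjusted p = 0.383 by edgeR). Of all miRNAs 15.2% were called and 32% did not overlap. Without Pkd1 P1 WT replicate 1, the library with muscle miRNAs, the log2 fold change of miR-486a-5p was -0.78 (adjusted p = 0.1 by edgeR). The call was also lost without Pkd1 replicate 2 and without Pkd2 replicate 1 or 2, and the adjusted p ran from 0.00695 to 0.913 over all alternatives. With library totals the median of all miRNAs moved by 0.94, which turned the miR-486a-5p value to 0.07, and relative to that median it was -0.80. At P3 and P7 no member was called between WT kidneys of the lines, where 2.71% and 11.4% of all miRNAs were. The lines did not overlap in miR-144-5p at P3 (17.4% of all miRNAs) and in miR-486a-5p at P7 (32% of all miRNAs). The line and the time or batch in which its libraries were made cannot be told apart.

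Ratios between members were taken within each library, since the scaling factor cancels in them. The 2 arms of miR-144 come from 1 hairpin, yet their ratio varied widely. The 3p arm over the 5p arm ran from 0.118 to 2.08 in the Pkd1 line (median 0.872) and from 0.611 to 3.38 in the Pkd2 line (median 1.65). The Pkd2 ratio was 1.96 times that of Pkd1 on average, and the Pkd2 group had the higher mean in 6 of 6 pairs of groups (permutation of line labels within age and genotype, two-sided p = 0.00038, adjusted over 3 ratios p = 0.00114). In 2 of the 6 pairs the lines did not overlap. The share of reads in miR-10a-5p and miR-10b-5p, with which this ratio moved within groups, was 31.4% to 81.0% in the Pkd1 libraries (median 63.4%) and 37.0% to 74.1% in the Pkd2 libraries (median 46.7%), and its part in the difference between the lines was not tested. miR-451a over miR-486a-5p was 1.33 times higher in Pkd2 (permutation p = 0.0559, adjusted p = 0.0838, higher in 6 of 6 pairs of groups). Without Pkd1 P3 KO replicate 2 that permutation p was 0.00303, and over all alternatives it ran from 0.00303 to 0.135. miR-451a over miR-144-5p was 0.801 times that of Pkd1 (permutation p = 0.131).

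**Figure D3:**
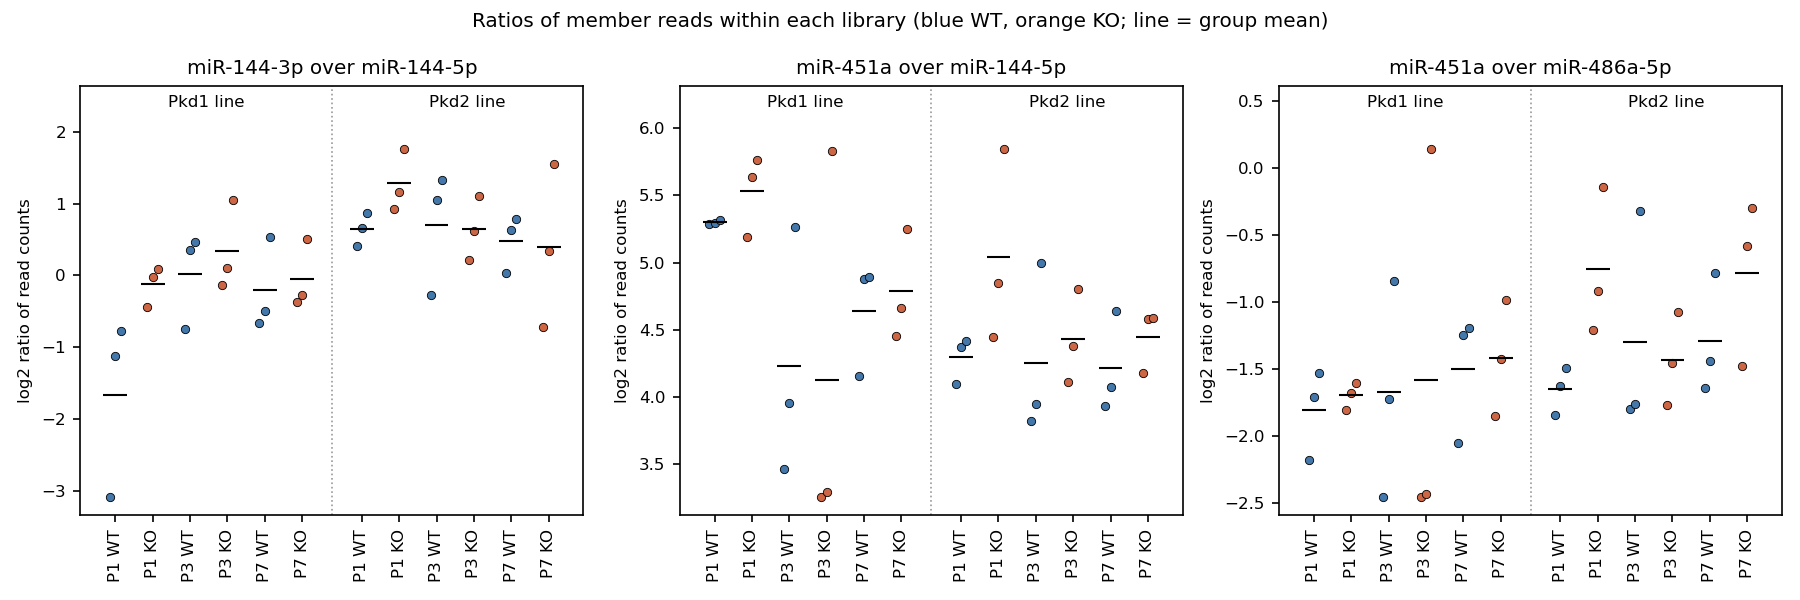
Log2 ratio of read counts of miR-144-3p over miR-144-5p (left), miR-451a over miR-144-5p (middle) and miR-451a over miR-486a-5p (right) in each library, in 12 groups along the horizontal axis; points are libraries sorted by value, blue for WT and orange for KO, and the line is the group mean. The miR-144 arm ratio is higher in the Pkd2 line in each pair of groups, and in the Pkd1 P3 KO group the ratios with miR-451a are spread widely because 1 library lies far above the other 2.

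Between KO and WT the ratios were compared in 3 against 3 libraries, where an exact two-sided permutation test cannot go below p = 0.1. The arm ratio of miR-144 did not overlap between KO and WT at P1, in the Pkd1 line (log2 difference 1.54) and in the Pkd2 line (0.63), both at p = 0.1 by the exact permutation test and adjusted p = 0.4 over 24 comparisons. Without Pkd1 P1 WT replicate 2, with 26 reads of miR-144-3p against 221 of miR-144-5p, the first difference was 0.82, and without Pkd2 P1 KO replicate 3 the second was 0.39. At P1 in Pkd2 the ratios of miR-451a over miR-144-5p (0.75) and over miR-486a-5p (0.90) did not overlap, at the same exact p of 0.1. Without KO replicate 2, the library with the high miR-451a, these differences were 0.35 and 0.59. At P3 and P7 all KO and WT groups overlapped in all 3 ratios. In the Pkd2 line at P7 the differences of the log2 ratios between KO and WT were -0.09, 0.24 and 0.50 (exact permutation p = 1, 0.4 and 0.3), and 3 libraries a group leave wide room around them.

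Within groups the ratios followed the composition of the library. The deviation of each library from its group mean was set against the deviation of its miR-10 share, the percentage of reads from miR-10a-5p and miR-10b-5p. miR-451a over miR-486a-5p rose with that share over the 36 libraries (Pearson r = 0.904, permutation p = 4.0e-05; Spearman rho = 0.885, permutation p = 3.0e-05; adjusted p = 9.3e-05 for both over 7 relations). Leaving out the 2 libraries farthest in miR-10 share gave r = 0.854, and within lines r was 0.912 in Pkd1 (permutation p = 0.00613) and 0.911 in Pkd2 (permutation p = 0.00107). The arm ratio of miR-144 went the other way, with r = -0.76 (permutation p = 2.0e-05, adjusted p = 7.0e-05) and rho = -0.803 (permutation p = 2.0e-05, adjusted p = 9.3e-05), r = -0.769 without the 2 farthest libraries, -0.622 in Pkd1 (permutation p = 0.0113) and -0.923 in Pkd2 (permutation p = 0.00068). miR-451a over miR-144-5p had r = 0.774 (permutation p = 0.00047, adjusted p = 0.000658) and rho = 0.769 (permutation p = 0.00014, adjusted p = 0.000196), and r = 0.66 without the 2 farthest.

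Of the single levels, miR-144-3p fell (r = -0.697, adjusted p = 7.0e-05; rho = -0.731, adjusted p = 9.3e-05, both by permutation; r = -0.717 without the 2 farthest) and miR-451a rose with the miR-10 share (r = 0.766, adjusted p = 0.000227; rho = 0.792, adjusted p = 0.000157, both by permutation; r = 0.651 without the 2 farthest). miR-144-5p (r = 0.13, permutation p = 0.614; rho = 0.0739, permutation p = 0.73) and miR-486a-5p (r = -0.164, permutation p = 0.531; rho = -0.269, permutation p = 0.222) were not related to it detectably. The libraries in which miR-451a stood far above its group, Pkd1 P3 KO replicate 2 and Pkd2 P1 KO replicate 2, held 79.8% and 51.8% of their reads in miR-10, the highest share of their groups. What sets the miR-10 share of a library was not tested.

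**Figure D4:**
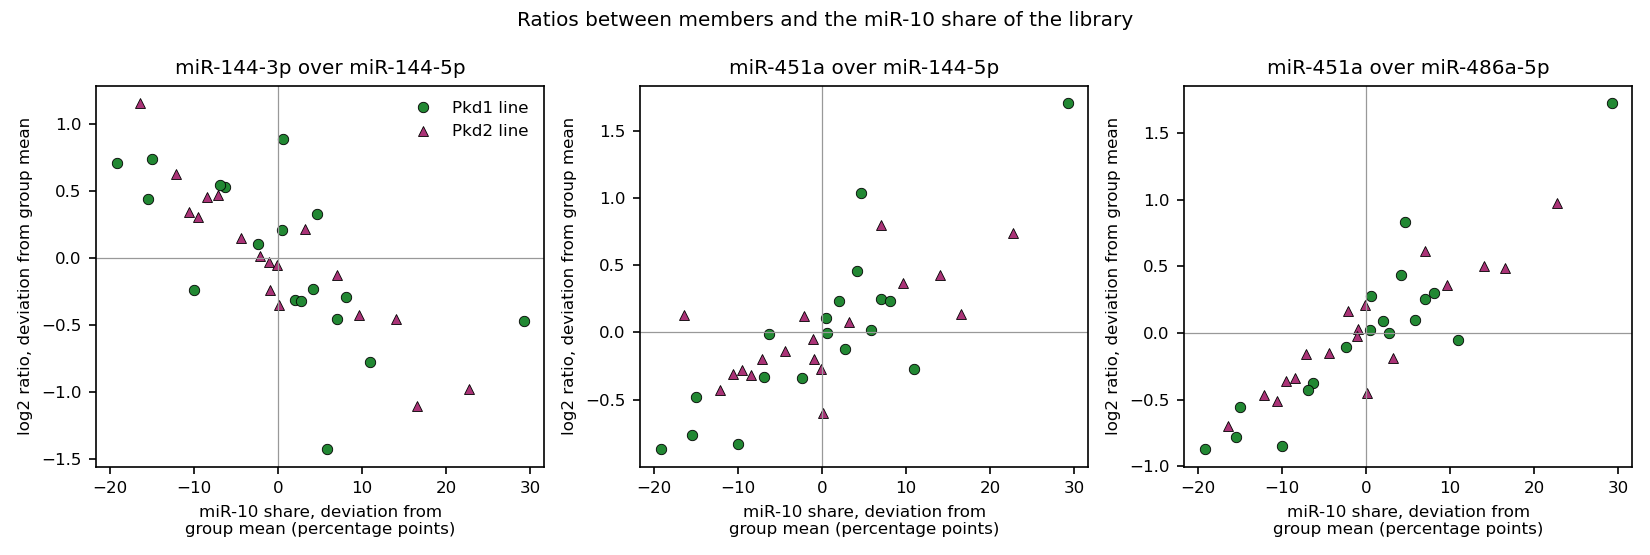
Deviation from the group mean of the log2 ratio of miR-144-3p over miR-144-5p (left), miR-451a over miR-144-5p (middle) and miR-451a over miR-486a-5p (right) against the deviation of the miR-10 share in percentage points; each of the 36 points is a library, circles for the Pkd1 line and triangles for the Pkd2 line. The left cloud falls (r = -0.76) and the other clouds rise (r = 0.774 and 0.904) in both lines.

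The levels of the members were also compared with each other within groups, over 6 pairs. Both values of a pair come from the same library and share its scaling factor. miR-144-5p and miR-486a-5p, which come from different chromosomes, rose and fell together (Pearson r = 0.725, permutation p = 0.0004, adjusted p = 0.0024; Spearman rho = 0.711, permutation p = 0.00023, adjusted p = 0.00138; n = 36). Without the 2 farthest libraries r was 0.691, and within lines it was 0.846 in Pkd1 (permutation p = 0.0016) and 0.635 in Pkd2 (permutation p = 0.0565). miR-144-3p and miR-486a-5p were related less closely (r = 0.487, permutation p = 0.0118, adjusted p = 0.0353; rho = 0.519, permutation p = 0.00891, adjusted p = 0.0267; r = 0.477 without the 2 farthest), and within lines r was 0.237 in Pkd1 (permutation p = 0.393) and 0.709 in Pkd2 (permutation p = 0.00307).

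The 2 arms of miR-144 were not related detectably with TMM scaling (r = 0.257, permutation p = 0.237, adjusted p = 0.284; rho = 0.305, permutation p = 0.102, adjusted p = 0.123; n = 36), nor was miR-451a with its neighbour miR-144-5p (r = 0.444, permutation p = 0.0999, adjusted p = 0.2; rho = 0.373, permutation p = 0.0909, adjusted p = 0.123). With library totals the arms had r = 0.83 (permutation p = 4.0e-05). The r of miR-451a with miR-144-5p was 0.208 in Pkd1 (permutation p = 0.752) and 0.699 in Pkd2 (permutation p = 0.00427). miR-451a and miR-144-3p had r = -0.218 (permutation p = 0.134) and rho = -0.376 (permutation p = 0.0351, adjusted p = 0.0701). Within lines their relation was r = -0.347 (permutation p = 0.00416, adjusted p = 0.0125) and rho = -0.659 (permutation p = 0.00298, adjusted p = 0.01) in Pkd1, with r = -0.367 without the 2 farthest libraries, and r = -0.0622 (permutation p = 0.819) and rho = -0.185 (permutation p = 0.52) in Pkd2. miR-451a and miR-486a-5p had r = 0.37 (permutation p = 0.296) and rho = 0.114 (permutation p = 0.623).

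Over the 319 other miRNAs with a mean of at least 10 CPM, the within-group pattern most like the mean of the 4 members was that of miR-134-5p (Spearman rho 0.571 over 36 libraries), followed by miR-142a-5p (0.504), miR-379-5p (0.495), miR-29a-3p (0.468) and miR-210-3p (0.465). The median rho of the 319 was 0.0605 and the lowest -0.463. The likeness was uneven across members: miR-142a-5p, a leukocyte miRNA, had a rho of 0.828 with miR-144-3p and of -0.509 with miR-451a, and miR-210-3p, a miRNA induced by low oxygen, had 0.782 and -0.373. All points share the libraries and their scaling, and no test was made of these values.

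The remaining products of the same hairpins were scarce. miR-486a-3p was read in all libraries at 8 to 148 reads and passed no comparison of KO with WT, with log2 fold changes of -0.20 to 0.67. miR-486b-3p had at most 21 reads. miR-451b, from the strand opposite miR-451a, had 0 reads in all 36 libraries, which allows at most 0.391 CPM in the library with the highest limit.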

How the data were processed

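The members and the marker lists were chosen with earlier results of these data known. Total RNA of whole kidneys was sequenced on an Illumina HiSeq2000. The authors trimmed the adaptor, discarded reads of 17 bases or fewer and quantified the rest in miRDeep2 (version not given in the sources used here) against miRBase release 21 and mm10; their processing notes also list CASAVA 1.8.2 and HTSeq. The authors deposited raw read counts per mature miRNA and hairpin, not normalized; of the 2061 rows, repeats of a mature miRNA were reduced to the row with the highest total, leaving 1915. miRNAs with 10 or more counts in at least 3 libraries were tested with edgeR 4.0.16 (R 4.3.3): TMM factors, quasi-likelihood test, 1 fit of 18 libraries per line (706 miRNAs in Pkd1, 746 in Pkd2) and 1 of all 36 (775) for the comparisons of lines, with Benjamini-Hochberg adjustment over all miRNAs tested and a threshold of 0.05. All 5 members passed the filter in both lines, and miR-486b-5p stayed a row of its own in the main fits. The miR-486 sequence is therefore counted under both names in ranks, shares and the adjustment. CPM within a line use that line's factors. The SE is the log2 fold change divided by the square root of F. Ratios and relations were tested by permutation in SciPy 1.17.1 and NumPy 2.4.6, exact for 3 against 3 and with 100000 resamples otherwise, for which 1e-05 is the smallest p. The edgeR comparison of KO with WT at P7 and the test of relations within groups were tried on simulated data. Named miRNAs are the members, the other products of their hairpins, the marker lists and the 5 most like the members' mean within groups. The contrasts of the KO effect with P3 and the relations with the miR-10 share were added after seeing the data. Limits of detection cover counting error only. Pkd1 and Pkd2 messenger RNAs were not analysed here, so the genotype was not checked. Alternatives were DESeq2 1.42.0, other scaling, no filter, the compared groups alone, 1 row for miR-486, a replicate block and leaving out each library.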

Additional observations from a re-analysis of the deposited data

Results flagged for a closer look

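In 4 cases every KO library lay on one side of WT in one group and on the other side in another, and each difference was tested. The cases were picked by that switch in these same data, so their p-values are not independent of it. In the Pkd1 line miR-144-5p went from a log2 fold change of -0.69 at P1 to 1.08 at P3, a difference of 1.76 (adjusted p = 0.0799 by edgeR), and miR-486a-5p from -0.61 to 0.91, a difference of 1.52 (adjusted p = 0.0799 by edgeR). At P3 miR-144-5p stood at 1.08 in the Pkd1 line and -0.29 in the Pkd2 line, each from the fit of its own line, and the fit of all 36 libraries gave a difference of -1.33 (adjusted p = 0.502 by edgeR). In the Pkd2 line it went from -0.29 at P3 to 1.13 at P7, a difference of 1.42 (adjusted p = 0.17 by edgeR). None passed the threshold of 0.05. The last 2 cases rest on a near tie: at P3 in Pkd2 the highest KO library held 31.93 CPM and the lowest WT library 31.95 CPM, and on the scale common to all 36 libraries these held 26.5 and 24.9 CPM, so the groups overlap there.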

How the results depend on the processing

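Of 2263 recomputed values, 2123 stayed on their side of the threshold or close to the original count or value. That total includes values that had not passed to begin with. Fold changes that were called stayed so in 5 to 13 of their 13 alternatives. The fewest were for miR-486a-5p in Pkd2 KO at P7 against P1, and the most for miR-144-3p between WT of the lines at P1. For miR-144-5p between Pkd2 KO and WT at P7 it was 7. The sign of a log2 fold change differed in 76 of 1568 recomputed fold changes, 26 of them with library totals and 42 with 1 library left out, and in 3 of the 76 the unadjusted p of either fit was under 0.05. With library totals alone, the log2 fold change of miR-144-5p between Pkd1 WT at P7 and P3 turned to -0.23, and that of miR-486a-5p between WT kidneys of the lines to 0.071 at P1 and 0.16 at P7. The number of the 4 members called fell to 0 with library totals for Pkd1 WT P3 against P1 (from 1), P7 against P3 (from 2) and P7 against P1 (from 1), for KO P7 against P1 in Pkd1 (from 1) and Pkd2 (from 2), and for Pkd2 KO against WT at P7 (from 1). With no filter it was 1 for Pkd1 WT P7 against P3, 2 for the KO effect at P3 minus P1 in Pkd1, 2 for Pkd2 KO against WT at P7 and 1 for Pkd2 KO P7 against P1. With only the compared groups it was 3 for Pkd1 WT P7 against P3, where miR-451a then passed (adjusted p = 0.0286 by edgeR), 0 for Pkd1 WT P7 against P1, 2 for Pkd1 KO P7 against P1, 1 for Pkd2 KO P7 against P1 and 1 for the lines at P7. DESeq2 gave 2 for Pkd1 WT P3 against P1, 2 for the KO effect at P3 minus P1 in Pkd1, 3 for Pkd2 KO against WT at P7, 1 for the KO effect at P7 minus P3 in Pkd2 and 1 for the lines at P7. Leaving out 1 library gave 0 to 3 for Pkd1 KO against WT at P3, for the KO effect at P3 minus P1 in Pkd1 and for Pkd2 KO against WT at P7, 1 to 2 for Pkd1 WT P7 against P3 and for the lines at P1, 0 to 1 for Pkd1 WT P7 against P1, 1 to 3 for Pkd2 KO P7 against P1, and a line difference of 0.33 to 0.55 log2 for miR-451a over miR-486a-5p. Apart from the scaling, which moved the median of all miRNAs, and the fewer samples or miRNAs fitted, the cause was not tested. The share of all miRNAs called in each refit is not given here. These counts therefore show how steady the calls were, not whether the members stand apart from other miRNAs.

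Same-numbered libraries of KO and WT did not deviate together throughout (correlations of -0.48 to 0.507 over 18 pairs, 7 of them over 0.1, 5 best with their own number). The main fits therefore used no pairing. With 3 libraries a group these correlations cannot decide whether a pairing exists. The paper took littermates of the same age as controls, and the labels do not tie the numbers to litters. With the replicate number as a block, 2 members passed for the KO effect at P3 minus P1 in Pkd1 (from 0) and 1 for Pkd2 KO P7 against P1 (from 2), and no other count changed. The share of all miRNAs called with the block is likewise not given here. Low counts limit miR-144-3p most, with 26 reads in its lowest library.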
